A study of Mus musculus with 6 samples.

Results

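CC chemokine ligands were followed by transcriptomic analysis (TA) in kidneys of the MRL and LPR strains. The members were Ccl2, Ccl3, Ccl4, Ccl5, Ccl6, Ccl7, Ccl8, Ccl9, Ccl12 and Ccl19, chosen by gene name with earlier results of these data known. Every probe that carries 1 of these names and is not a control was taken, which gave 11 probes for 10 of the 36870 gene names on the array. Ccl4 had 2 probes and each other member had 1. All 11 probes also matched the current RefSeq symbol of their transcript.

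LPR mice (MRL/MpJ-Fas lpr/lpr) carry the lpr mutation of Fas, a death receptor that limits lymphocyte numbers, and develop lupus nephritis. MRL mice (MRL/MpJ) share that background strain without the mutation and served as controls. The mice were females of 6 months of age, and whole kidneys were taken from 3 mice of each strain, and no treatment was labelled. Each mouse gave 1 array, and all 6 arrays lay on 1 Agilent slide. The mutation is present in every cell of the LPR mice, so the kidney and the immune cells in it cannot be told apart as its site of action. In whole kidney, more cells of a type and more RNA per cell cannot be told apart.

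CC chemokines are small secreted proteins that bind G protein-coupled receptors on leukocytes and guide their migration. Ccl2, Ccl7 and Ccl12 are ligands of Ccr2 and attract monocytes. Ccl3, Ccl4 and Ccl5 attract T cells and macrophages, whereas Ccl19 binds Ccr7 and positions T cells and dendritic cells in lymphoid tissue. In inflamed kidney they are released by infiltrating leukocytes and by resident cells.

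Compared to MRL mice, all 10 genes were higher in LPR mice, and so were all 11 probes. The log2 change, LPR minus MRL, ran from 2.06 for Ccl2 to 6.68 for Ccl8. Probes were tested with limma over 39926 probes, with Benjamini-Hochberg adjustment and a threshold of 0.05, and the brightest tested probe stood for a gene. As background, 7.11% of the 25806 tested genes and 6.52% of the tested probes were higher in LPR mice by the same call. Since the members were chosen with earlier results known, their count is a description and no test against these shares. The median log2 change was 3.89 for the 10 members and -0.12 for all tested genes. With Ccl3, whose MRL signals were at background, at its lower bound, the median of the members was 3.42.

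The 3 LPR mice all lay above the 3 MRL mice for 10 of 10 genes, which held for 11.7% of all tested genes. The choice of the members limits this comparison in the same way. The distance between the lowest LPR mouse and the highest MRL mouse was 1.52 for Ccl2 and 6.15 for Ccl8 on the log2 scale, the smallest and the largest among the 11 probes. In 8 of the 10 genes the SD of the log2 level was larger in MRL mice, where the signals were dimmer. It was larger in LPR mice for Ccl2 and Ccl19.

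Of these genes, 9 lie on chromosome 11 in 2 groups. The probes of Ccl2, Ccl7, Ccl12 and Ccl8 span 79.5 kb (chr11:81850650-81930167, genome build mm9). Those of Ccl5, Ccl9, Ccl6, Ccl3 and Ccl4 span 139 kb (chr11:83339296-83478111). The probe of Ccl19 lies on chromosome 4 (chr4:42250105-42250164). The exon or UTR that each probe covers was not analysed here.

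Ccl8 and Ccl12 are neighbours on the chromosome. Their probes are shown since no other pair of probes of different members had a longer run in common. It measured 13 of 60 bases and is in capitals. The windows hold bases 16 to 45 of the Ccl8 probe (chr11:81930108-81930167, plus strand, mm9) and bases 1 to 30 of the Ccl12 probe (chr11:81916710-81916769, plus strand, mm9), each 5′ to 3′.
Ccl8 probe A_51_P464703: ttctgcagCCTTGAACCTTCAcacctgagt
Ccl12 probe A_52_P249514: tCCTTGAACCTTCAtgtctaggctgagagt
The next longest run between different members measured 9 bases, between Ccl8 and Ccl9.

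The pair of Ccl4 probes overlaps by 46 of 60 bases and is shown since the values of both stand side by side below. Capitals mark the 14 bases that only that probe covers. The windows hold bases 31 to 60 of the brighter probe (chr11:83478052-83478111, plus strand, mm9) and bases 1 to 30 of the dimmer probe (chr11:83478038-83478097, plus strand, mm9).
Ccl4 probe A_51_P509573: gtctcccatggagatgGTCCACCATTGCTG
Ccl4 probe A_55_P2744077: GGGAGTATTATTTTtattatttatgtttta

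RefSeq promoters (build GRCm38.p6) were given for 6 of the 10 members, namely Ccl3, Ccl6, Ccl8, Ccl9, Ccl12 and Ccl19. They were searched on both strands, from 250 bases before to 50 bases after the start site, for 4 motifs. These were the NF-kB motif, the ISRE core (GAAA and GAAA with 2 bases between), the GAS element TTCNNNGAA and the TATA box TATAAA. The promoters of Ccl8, Ccl12 and Ccl9, 3 of 6, held a TATA box, against 13.6% of 32851 promoters. In Ccl9 it also occurs as the reverse complement, and a pair of these matches overlaps. The NF-kB motif was found in 1 of 6 (Ccl9, 35 bases before the start) against 4.51% of all promoters. The ISRE core was found in 1 of 6 (Ccl19, 208 bases before the start) against 3.44%. The GAS element was found in 0 of 6 against 8.30%. A match describes letters only.

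Over the 150 bases before the start site, the promoters of Ccl8 and Ccl12 were 61.5% identical in a global alignment, the highest of the 15 pairs. The others ran from 42.7% to 53.7%. These 2 are shown, 5′ to 3′, with the TATA box in capitals, 32 bases before the start in Ccl8 (chr11:82115035-82115184, plus strand, GRCm38.p6) and 31 bases before it in Ccl12 (chr11:82101695-82101844, plus strand, GRCm38.p6).
Ccl8 promoter: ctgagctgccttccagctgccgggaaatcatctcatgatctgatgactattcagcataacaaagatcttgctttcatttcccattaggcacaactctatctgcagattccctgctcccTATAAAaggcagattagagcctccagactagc
Ccl12 promoter: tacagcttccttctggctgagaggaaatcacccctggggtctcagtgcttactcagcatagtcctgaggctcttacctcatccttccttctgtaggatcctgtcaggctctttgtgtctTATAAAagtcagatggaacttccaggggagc

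**Figure D1:**
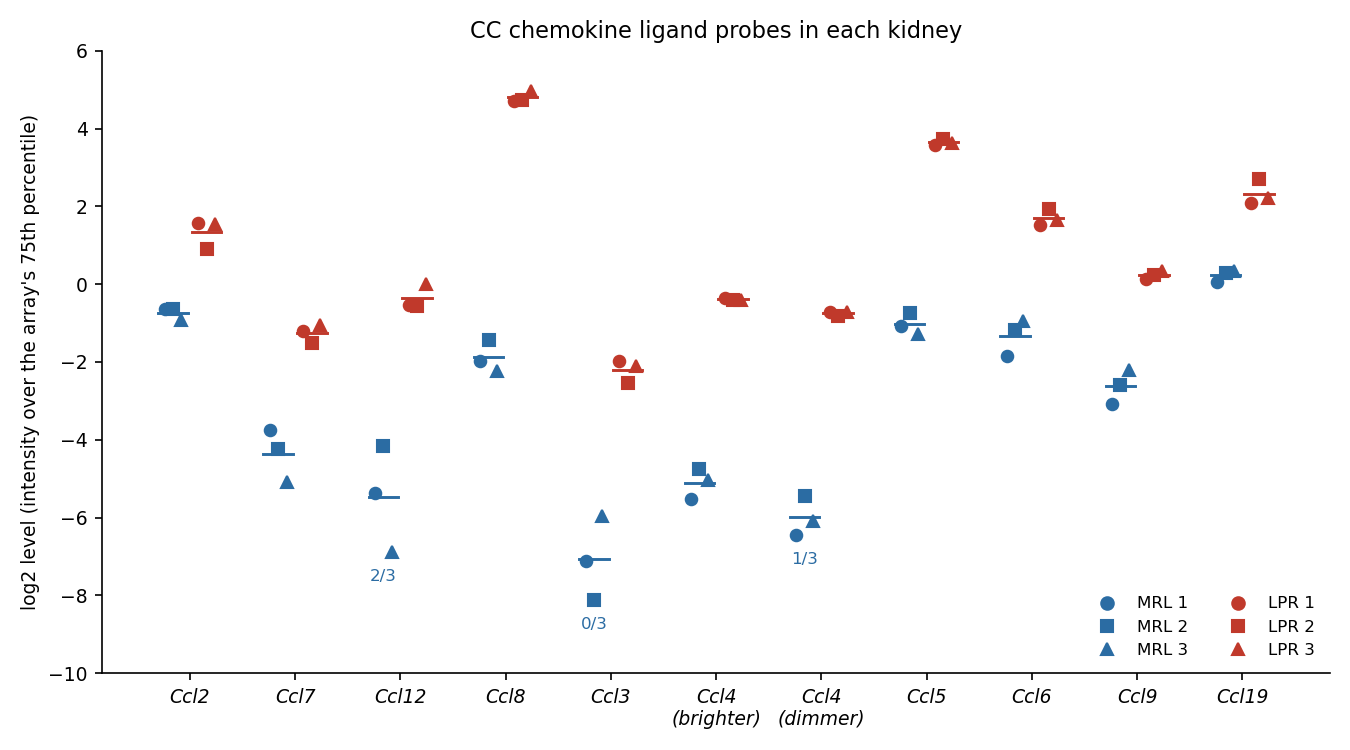
Log2 level of each of the 11 probes (intensity over the 75th percentile of the array) in 3 MRL mice (blue) and 3 LPR mice (red), with a bar at the mean of each group. A fraction gives the MRL arrays well above background where these were fewer than 3. The LPR mice lie above the MRL mice for every probe, with the widest distance for Ccl8, and levels of different probes are not to be compared.

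Intensities are given as deposited, background-subtracted but not normalized between arrays, whereas log2 levels and changes are relative to the 75th percentile of each array. That percentile was 706 to 759 on 5 arrays and 942 on the array of LPR 1. Of the spots, 69.6% to 73.5% exceeded background well, and none was saturated. Arrays of a group correlated with Pearson's r of 0.990 to 0.993 over probes, which are no independent replicates, and arrays of different groups with 0.961 to 0.971. The brighter Fas probe, A_55_P2091676, gave 571, 588 and 679 in MRL mice and 671, 311 and 587 in LPR mice (log2 change -0.47, adjusted p = 0.234 in limma). The dimmer Fas probe, A_52_P73385, had no MRL array well above background, and the LPR mice exceeded that level by at least 1.47-fold (adjusted p = 0.0339 in limma). On the slide, the MRL arrays and LPR 1 shared a row, and LPR 2 and LPR 3 lay in the other row.

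Ccl8, in the mouse a ligand of Ccr8, had an intensity of 188, 264 and 149 in the 3 MRL mice. In the 3 LPR mice it was 24641, 19605 and 23582. The LPR mice were close to each other and far above all MRL mice, of which MRL 3 was the lowest. The log2 level was -1.88 ± 0.41 in MRL mice and 4.80 ± 0.14 in LPR mice (SD, n = 3 each). The log2 change was 6.68 with a standard error (SE) of 0.21, which is 103-fold (adjusted p = 1.18e-05 in limma). Of the 25806 tested genes, 5 had a larger log2 change.

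Ccl12, a monocyte attractant found in rodents, gave an intensity of 17.9, 39.6 and 6.00 in MRL mice. It was 647, 504 and 761 in LPR mice. The MRL mice were spread widely, and MRL 3 was not well above background. The log2 level was -5.47 ± 1.36 in MRL mice and -0.36 ± 0.32 in LPR mice (SD, n = 3 each). The rise was 34.5-fold (log2 change 5.11, SE 0.62, adjusted p = 0.00259 in limma). Its size rests on the MRL mice, since the log2 change was 5.76 without MRL 2 and 4.40 without MRL 3. With the slide row in the fit the call was lost (log2 change 4.93, adjusted p = 0.0507 in limma).

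Ccl7, another ligand of Ccr2, was measured at 54.6, 38.1 and 20.7 in MRL mice and at 409, 260.3 and 364 in LPR mice. MRL 1 was the highest of its group and LPR 2 the lowest of the other, without overlap. The log2 level went from -4.36 ± 0.68 to -1.26 ± 0.23 (SD, n = 3 each), which is 8.58-fold higher (SE of the log2 change 0.33, adjusted p = 0.00136 in limma).

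Ccl2, the best known monocyte attractant of the family, gave 474, 462 and 372 in MRL mice and 2793, 1371 and 2214 in LPR mice. LPR 2 stood below the other LPR mice but above every MRL mouse. Its log2 level was -0.73 ± 0.17 in MRL mice and 1.34 ± 0.38 in LPR mice (SD, n = 3 each). The rise was 4.18-fold (SE of the log2 change 0.21, adjusted p = 0.00101 in limma). The gene lies in the same 79.5 kb as Ccl8.

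Also inside that span lies Ccl11, a ligand of Ccr3 that attracts eosinophils and is not a member. Its probe gave 25.0, 30.9 and 24.7 in MRL mice and 87.9, 67.3 and 77.5 in LPR mice. The groups did not overlap, and the rise was 2.56-fold (log2 change 1.36, SE 0.13, adjusted p = 0.000823 in limma).

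Ccl5, which attracts T cells and is itself made by activated T cells, gave an intensity of 350, 428 and 289.9 in MRL mice. It was 11290, 9887 and 9421 in LPR mice, which were nearly alike. The log2 level was -1.03 ± 0.28 in MRL mice and 3.65 ± 0.08 in LPR mice (SD, n = 3 each). The rise was 25.7-fold (log2 change 4.68, SE 0.16, adjusted p = 1.31e-05 in limma).

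Ccl4 attracts T cells and macrophages. Its brighter probe gave 16.1, 26.4 and 21.7 in MRL mice and 732, 561 and 573 in LPR mice, with no overlap. It rose by 26.2-fold (log2 change 4.71, SE 0.19, adjusted p = 2.21e-05 in limma). The dimmer probe gave 8.41, 16.3 and 10.5 in MRL mice, of which 1 of 3 was well above background, and 572, 421 and 464 in LPR mice. Its fitted log2 change was 5.25 (SE 0.24). Both probes rose. Within mice, the log2 change of the dimmer probe exceeded that of the brighter by 0.54 (95% interval 0.23 to 0.84). Normexp background correction was run with an offset of 50 added to each intensity. With it their log2 changes were 2.85 for the dimmer and 2.88 for the brighter probe. The offset exceeds the MRL signals of both probes, so this setting cannot decide whether their changes differ. The difference thus depended on the processing, and none is read from these arrays.

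Ccl3, a ligand of Ccr1, was well above background in all LPR mice and in 0 of 3 MRL mice. The intensities were 5.28, 2.55 and 11.4 in MRL mice and 239, 127 and 176 in LPR mice. Hence, only a bound can be given for its change. LPR mice exceeded MRL mice by at least 13.3-fold, from the mean of the LPR arrays against MRL signals raised to the lowest signal well above background on each array (adjusted p = 0.00124 in limma for the measured values).

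Ccl6 and Ccl9 are chemokines of myeloid cells that act through Ccr1. Ccl6 gave 205, 312 and 367 in MRL mice and 2700.0, 2835 and 2359 in LPR mice, an 8.15-fold rise (SE of the log2 change 0.24, adjusted p = 0.000376 in limma). Ccl9 gave 87.6, 119 and 154 in MRL mice and 1036, 868 and 961 in LPR mice, a 7.24-fold rise (SE of the log2 change 0.22, adjusted p = 0.000283 in limma). For both genes MRL 1 was the lowest and MRL 3 the highest MRL mouse, and the groups did not overlap.

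Ccl19 gave 759, 872 and 899 in MRL mice. It was 3977, 4778 and 3498 in LPR mice. The MRL mice were close together, and LPR 2 was the highest LPR mouse. The log2 level was 0.23 ± 0.16 in MRL mice and 2.33 ± 0.32 in LPR mice (SD, n = 3 each), and Ccl19 rose by 4.28-fold (log2 change 2.10, SE 0.18, adjusted p = 0.000547 in limma). The array annotation pairs this probe with 3 Ensembl transcripts, and RefSeq lists near-identical copies of the gene (Ccl19-ps1, Ccl19-ps2 and Ccl19-ps3), so the copy that was measured is uncertain.

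Ranked by the log2 change, the order was Ccl8, Ccl12, Ccl4, Ccl5, Ccl7, Ccl6, Ccl9, Ccl19 and Ccl2, with Ccl3 left out because of its bound. Neighbours in this order were compared by the difference of their log2 changes within mice. Ccl5 exceeded Ccl7 by 1.58 (95% interval 0.54 to 2.63), and Ccl9 exceeded Ccl19 by 0.76 (95% interval 0.07 to 1.45). For the other 6 pairs the 95% interval held 0. The order was therefore not resolved among Ccl12, Ccl4 and Ccl5, among Ccl7, Ccl6 and Ccl9, or between Ccl19 and Ccl2. Nor was it resolved between Ccl8 and Ccl12. Ccl8 exceeded Ccl12 by 1.57, with an interval of -0.002 to 3.15, which the spread of Ccl12 in MRL mice made wide.

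**Figure D2:**
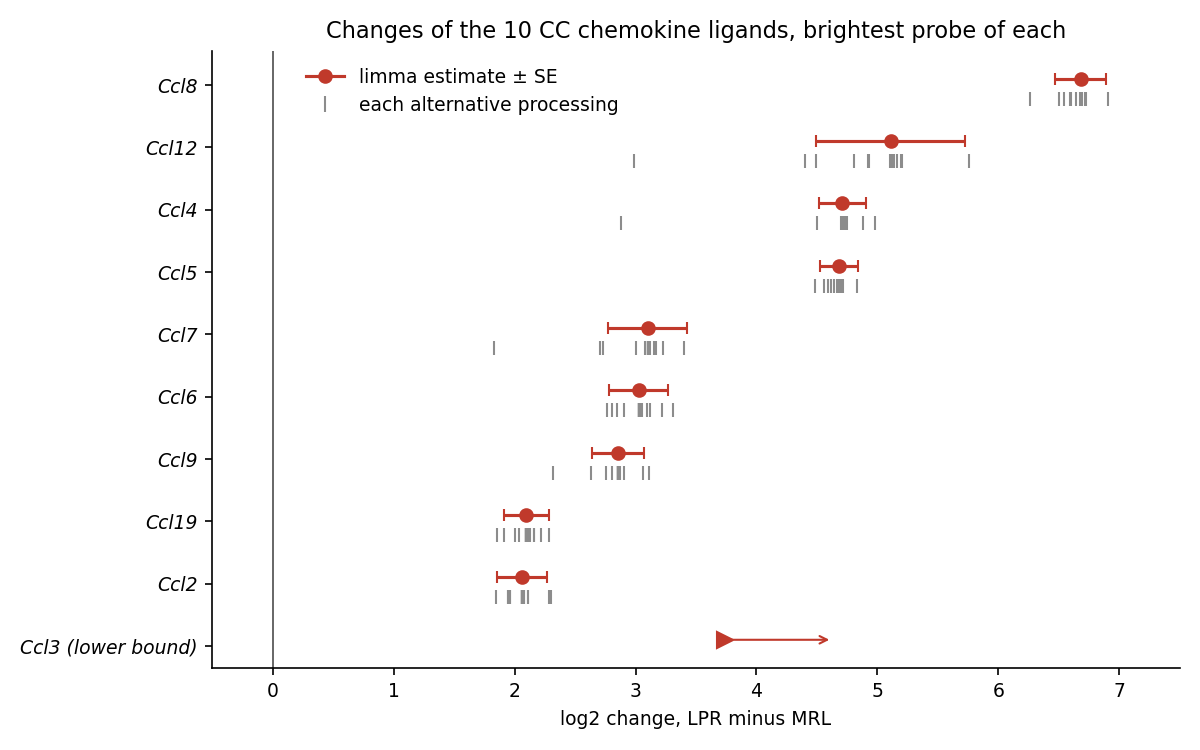
Log2 change (LPR minus MRL) of the brightest probe of each gene, with its SE from limma (red) and the value under each alternative processing (grey ticks). Ccl3 is drawn at its lower bound with an arrow, since no MRL array was well above background. Ccl8 has the largest estimate, and every value lies above 0.

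The offset of 50 in the normexp background correction shrinks the log2 changes of dim probes by its arithmetic. This correction lowered the folds of the dim genes most. Ccl12 was then 7.92-fold, Ccl4 7.38-fold and Ccl7 3.55-fold higher in LPR mice, and Ccl3, fitted without a bound, 3.28-fold. The folds of Ccl8 and Ccl5 were 76.8 and 22.4 under the same setting, and all 11 probes still passed.

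Within the slide row that holds both groups, LPR 1 exceeded the mean of the MRL mice by 1.85 (Ccl19) to 6.59 (Ccl8) on the log2 scale. Within the first column, LPR 2 exceeded MRL 1 by 1.53 (Ccl2) to 6.70 (Ccl8). Within the next column, LPR 3 exceeded MRL 2 by 1.92 (Ccl19) to 6.39 (Ccl8). Every probe was above 0 in each of these 3 comparisons.

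No mouse was the highest or the lowest of its group for all members. MRL 3 was the lowest MRL mouse for Ccl2, Ccl5, Ccl7, Ccl8 and Ccl12 and the highest for Ccl3, Ccl6, Ccl9 and Ccl19. Thus, the 4 genes of the 79.5 kb group shared their lowest MRL mouse, whereas Ccl6 and Ccl9 shared their highest. LPR 2 was the lowest LPR mouse for Ccl2, Ccl3, Ccl7 and Ccl12 and the highest for Ccl5, Ccl6 and Ccl19. Deviations were largest for Ccl12 (1.30 in MRL 2 and -1.41 in MRL 3) and Ccl3 (-1.06 in MRL 2 and 1.12 in MRL 3), which were also the genes with MRL signals at background. These are descriptions of 3 mice a group without a test.

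**Figure D3:**
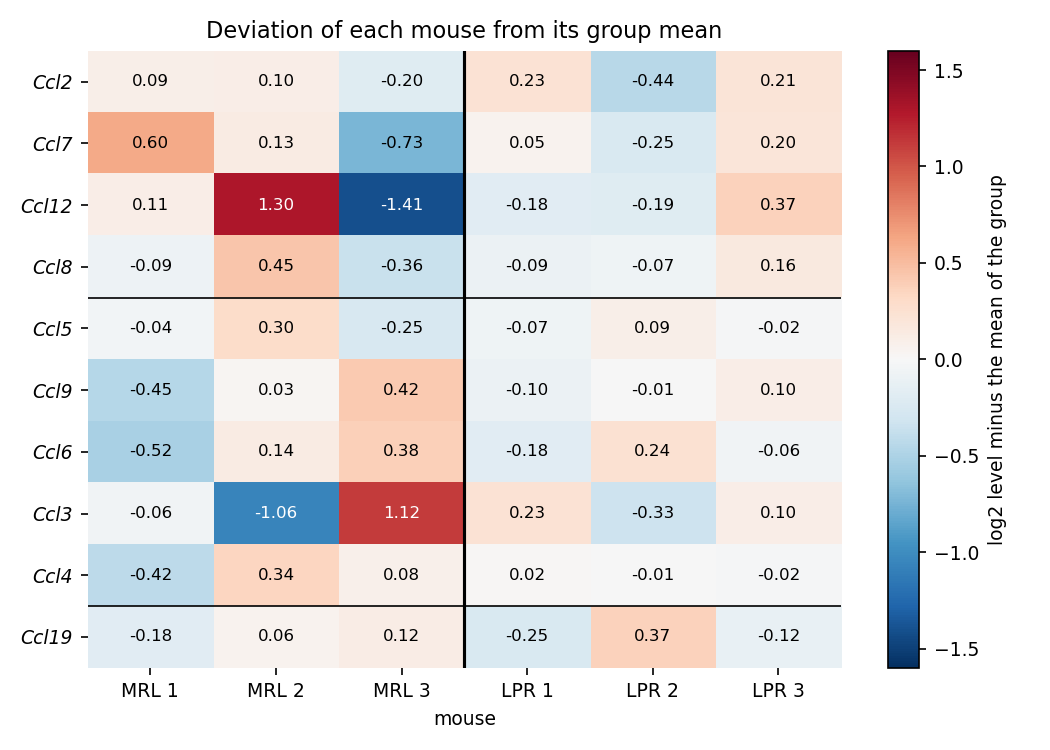
Log2 level of the brightest probe of each gene in each mouse, minus the mean of its group. Horizontal lines separate the 4 genes of the 79.5 kb group, the 5 genes of the 139 kb group and Ccl19. Among MRL mice, the 4 genes at the top and Ccl5 are lowest in MRL 3, and Ccl6, Ccl9, Ccl3 and Ccl19 are highest in it.

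By Euclidean distance over the 6 arrays, after the mean of each probe was subtracted, 5 genes outside the members were nearest to Ccl8. These were Gm15056 (0.55), Cxcl9 (1.07), Chil1 (1.34), Pla2g2d (1.39) and Apol11b (1.45). Cxcl9 is a CXC chemokine induced by interferon gamma. It gave 22.5, 45.4 and 29.8 in MRL mice and 2736, 1899 and 1997 in LPR mice, without overlap, a 62.1-fold rise. Gm15056 rose by 85.9-fold, from 22.5, 36.5 and 17.0 to 2942, 1617 and 2652. Chil1 rose by 62.1-fold. Pla2g2d rose by 54.4-fold, with 2 of 3 MRL mice well above background. Apol11b, with no MRL mouse well above background, was higher by at least 13.1-fold. Among the members the dimmer Ccl4 probe (1.83) and Ccl12 (2.38) were nearest to Ccl8, and Ccl2 (5.69) was farthest. The distance grows with the difference in the size of the change.

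Of 13 other CC chemokine ligands listed, 11 were on the array and 9 were tested. In limma 3 of the 9 were higher in LPR mice and none was lower, with a median log2 change of 0.66. Ccl24, which attracts eosinophils through Ccr3, rose by 2.92-fold (adjusted p = 0.0123), beside Ccl11. Its call was lost with the slide row in the fit and with the methods' test. Ccl20, the ligand of Ccr6, rose by 1.93-fold (adjusted p = 0.0445). It did not pass in 11 of 18 alternatives, among them without LPR 1, LPR 2, LPR 3, MRL 1 or MRL 3. Thus, by the brightest probes 3 of 9 passed against 7.11% of all tested genes, and the folds of these 3 were below those of all 10 members. This does not cover a dimmer probe of Ccl1, given below, whose lower bound exceeded the folds of Ccl2 and Ccl19.

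Ccl21b and Ccl21c had no probe under those names, and whether the Ccl21a probe also measured them was not tested. Ccl21a, which shares the receptor Ccr7 with Ccl19, gave 1116, 1574 and 1179 in MRL mice and 3041, 3225 and 1867 in LPR mice. The groups did not overlap, but the log2 change of 0.88 (SE 0.24) did not pass in limma (adjusted p = 0.0567). Ccl21a passed in 6 of 19 alternatives, among them normexp background correction, the replicate block, and the fit without LPR 3, the lowest LPR mouse. Ccl17 (log2 change 0.66, adjusted p = 0.0748 in limma), Ccl27a (-0.29), Ccl25 (-0.26) and Ccl28 (0.06) did not pass either. Neither did the brightest probe of Ccl1 (0.29), a ligand of Ccr8, whereas its dimmer probe, with no MRL mouse well above background, was higher by at least 4.30-fold. Ccl22 and Ccl26 were not well above background on any array.

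All 10 CC chemokine receptors were on the array, and 6 of the 8 tested were higher in LPR mice, with a median log2 change of 1.82.

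Ccr7, the receptor of Ccl19, gave 62.5, 73.7 and 33.6 in MRL mice and 463, 378 and 398 in LPR mice, a 6.81-fold rise (adjusted p = 0.000947 in limma). Ccr2, the receptor of Ccl2, Ccl7 and Ccl12, gave 72.5, 64.1 and 85.1 in MRL mice and 288, 215 and 291 in LPR mice, a 3.17-fold rise (adjusted p = 0.000901 in limma). Ccr6 rose by 5.67-fold and Ccr3 by 3.59-fold, but only 1 of 3 MRL mice had Ccr3 well above background, and its call was lost with the slide row in the fit. Ccr10, the receptor of Ccl27a and Ccl28, rose by 3.44-fold (adjusted p = 0.0357 in limma). It did not pass in 10 of 18 alternatives, among them without LPR 2, LPR 3, MRL 1, MRL 2 or MRL 3.

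Ccr8, the receptor of Ccl8 in the mouse, gave 39.0, 31.8 and 43.0 in MRL mice and 22.0, 30.8 and 21.5 in LPR mice. With a log2 change of -0.80 (SE 0.23) it did not pass in limma (adjusted p = 0.0683), beside a ligand that rose by 103-fold. It passed as lower under 2 of 19 alternatives, of which 1 left out LPR 2. Ccr9 did not pass (0.17), and Ccr1 and Ccr4 were not well above background on any array, so nothing can be said of the main receptor of Ccl6 and Ccl9.

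The Ackr receptors bind CC chemokines without guiding migration, and Ccrl2 was listed with them as an atypical receptor. Of the 4 tested, Ccrl2 rose by 2.02-fold (adjusted p = 0.00433 in limma), whereas Ackr2 (log2 change 0.52), Ackr1 (0.09) and Ackr4 (-0.34) did not pass.

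Cytokines that induce CC chemokines were tested in a list of 6, of which 4 were higher in LPR mice, with a median log2 change of 2.02. Ifng, made by T cells and NK cells, was not well above background in any of the 3 MRL mice and gave 261, 188 and 202 in LPR mice, higher by at least 16.4-fold (adjusted p = 0.000277 in limma). Ltb rose by 12.1-fold, Il1b by 4.78-fold and Lta by 1.95-fold, and the call of Lta was lost with the slide row in the fit, with the methods' test and without LPR 2, LPR 3, MRL 1 or MRL 3. Il1b lost its call with the methods' test. The brightest probe of Tnf did not pass (log2 change 0.15, adjusted p = 0.352 in limma), while a dimmer Tnf probe with 1 of 3 MRL mice above background rose by 7.73-fold. Il6 did not pass (log2 change 1.79, SE 0.75), and it passed without MRL 2.

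Over the alternatives, the lowest log2 change was 0.54 for Ccl11, 0.59 for Ccl24, 0.49 for Ccr3, 1.91 for Ccr7, 1.09 for Ccr2 and 3.38 for Ltb.

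**Figure D4:**
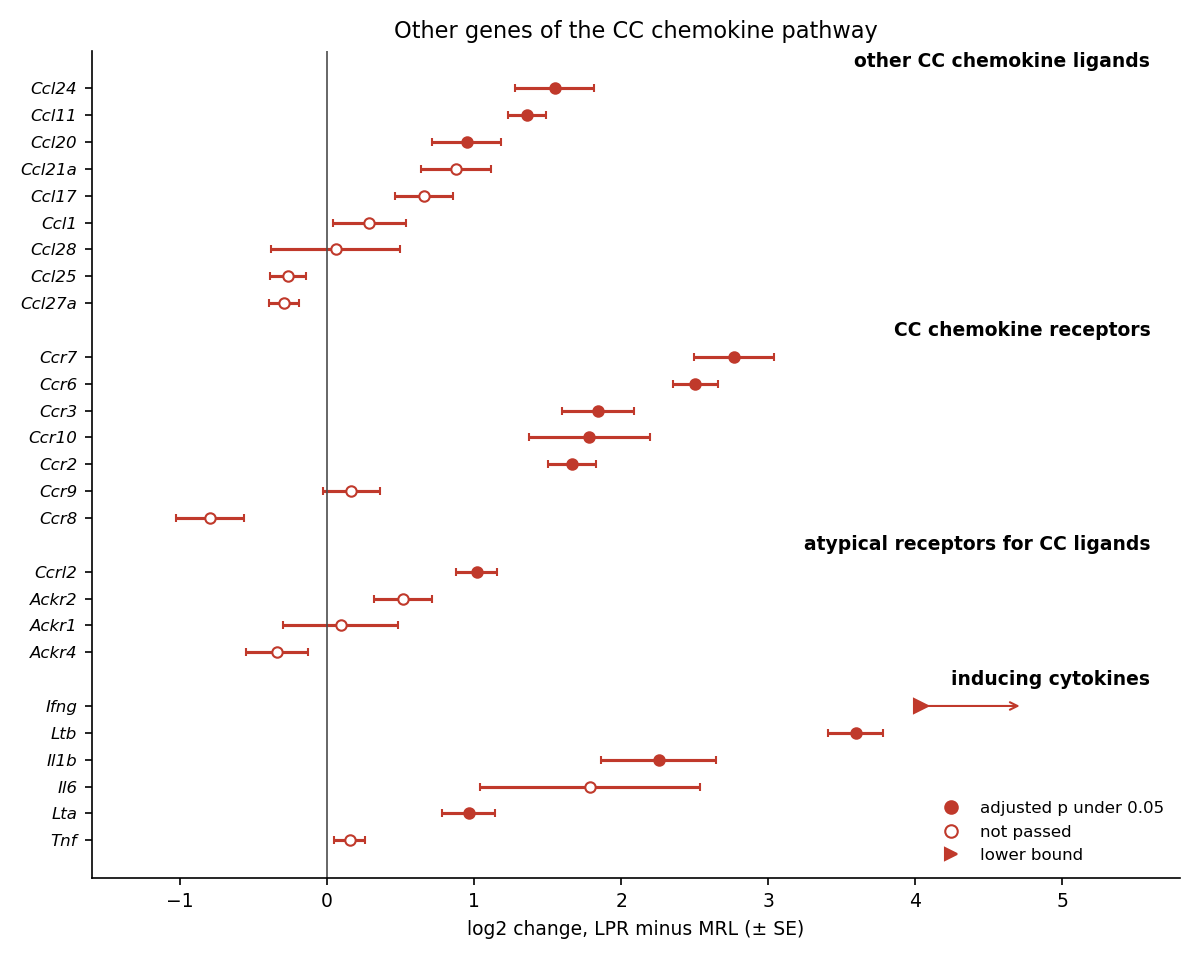
Log2 change (LPR minus MRL, with its SE) of the brightest tested probe of the other CC chemokine ligands, 7 of the 8 tested receptors, atypical receptors and inducing cytokines. Filled points passed an adjusted p of 0.05 in limma, open points did not, and the triangle of Ifng marks a lower bound. Of the genes drawn, Ccr8 is the lowest point.

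Many markers of leukocytes were also higher in LPR mice. Within a group the mice were not ordered alike in all lists. Relative to the mean of the MRL mice, MRL 2 was the highest MRL mouse for the ligands (0.18). MRL 2 was also the highest for NK and cytotoxic (0.30), T cell (0.14) and endothelial and stromal markers (0.12). That mouse was the lowest for the macrophage and monocyte (-0.22), dendritic cell (-0.10) and platelet lists (-0.31). The NK and cytotoxic list ordered the mice of both groups as the ligands did. Of the macrophage and monocyte markers 7 of 9 were higher in LPR mice, led by Fcgr1 (log2 change 4.23) and Lyz2 (3.15), and the mean log2 level of the list was 0.97 to 1.51 in MRL mice and 2.77 to 2.86 in LPR mice. Of the T cell markers 7 of 8 were higher, led by Cd2 (4.64) and Cd3g (4.15), with mean levels of -2.25 to -2.04 and 0.48 to 0.70. These lists hold genes of cells that make or follow CC chemokines, and their part in the result was not tested.

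NK and cytotoxic markers were higher in 4 of 5 tested genes, led by Nkg7 (4.42) and Gzmb, which no MRL mouse showed well above background. Their mean levels were -4.20 to -3.63 in MRL mice and -1.50 to -1.44 in LPR mice. Dendritic cell markers were higher in 4 of 6 genes, led by Itgax (3.82) and Clec9a (2.41), with mean levels of -4.34 to -4.12 and -2.83 to -2.49. Of 5 tested B cell markers 3 were higher, among them Cd79b (2.83) and Cd79a (1.88), and Ms4a1 was lower by its brightest probe but higher by a dimmer one (log2 change 4.99). Mean levels of the B cell list were -3.61 to -3.38 in MRL mice and -2.21 to -1.97 in LPR mice.

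Neutrophil markers were higher in 3 of 6 genes, led by S100a8 (2.48) and S100a9 (2.28), and their mean levels were -1.93 to -1.77 in MRL mice and -0.99 to -0.22 in LPR mice. Of the 4 platelet markers only Pf4 was higher (1.91), and the list ran from -4.21 to -3.49 and from -3.85 to -2.88. Of the endothelial and stromal markers 3 of 7 were higher, led by Col1a1 (2.37) and Vim (1.47), and Kdr was lower, with mean levels of 0.71 to 0.90 and 1.39 to 1.44.

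Markers of kidney epithelium, the labelled tissue, were well above background on all arrays. Their mean levels were 4.54 to 4.66 in MRL mice and 4.39 to 4.49 in LPR mice, and Slc5a2 (-0.57) and Lrp2 (-0.39) were lower among 9. Adipose markers varied between mice, at -0.09 to 0.66 in MRL mice and -0.59, -1.59 and -3.90 in LPR mice, and Ucp1 (-4.30) was lower. In the same LPR mice the mean level of the 10 CC chemokine ligands was 0.92 to 1.08. The part of these lists in the result was not tested.

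**Figure D5:**
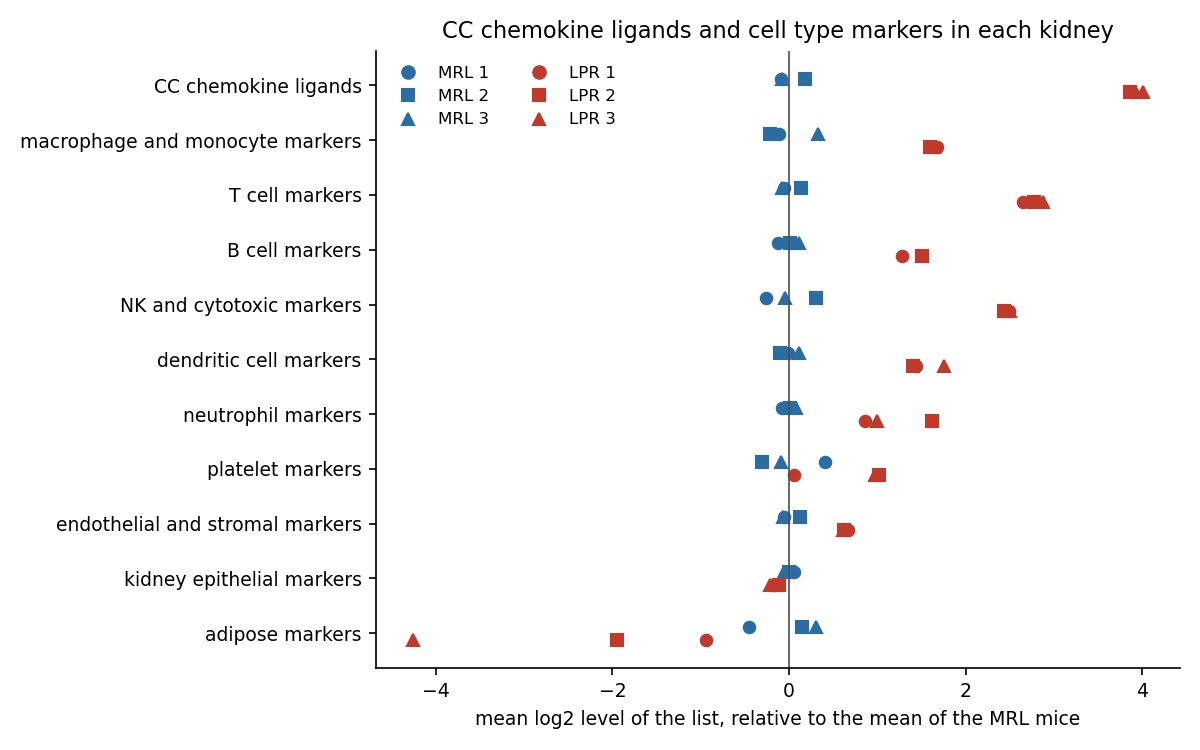
Mean log2 level of the 10 CC chemokine ligands and of each list of cell type markers in each mouse, relative to the mean of the 3 MRL mice. MRL mice are blue and LPR mice are red, with 1 symbol for each mouse. The LPR mice lie 3.86 to 4.01 above the MRL mean for the ligands and 2.65 to 2.88 above it for T cell markers, and adipose markers spread the most.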

How the data were processed

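Total RNA was labelled with Cy3 and hybridized to 6 single-colour arrays. The labels name the RNeasy Mini Kit for its extraction, and the study's methods name TRIzol. The authors deposited 1 background-subtracted intensity per spot, made with Agilent Feature Extraction 12.0.3.1. The authors also deposited the ratio of each intensity to the 75th percentile of its array, which was used as an alternative.

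Control spots and outlier spots were left out after the 75th percentile of all spots that are not controls was subtracted from log2 intensities. Spots of 1 probe were averaged, and probes well above background on at least 3 of 6 arrays were tested with limma 3.58.1 in R 4.3.3. Nothing states that replicates share a litter or batch. The number of arrays limits the precision, and an exact test of 3 against 3 mice cannot go below 0.1.

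Named were all member probes, in each pathway list up to 5 passing and 3 other genes, up to 2 genes for each marker list, and the 5 genes nearest to Ccl8. Ccr2, the other ligands that did not pass and the dimmer probes were named after their values were seen. The members and lists were chosen with earlier results of these data known. The limma fit was tested on simulated normal values, where it recovered 132 of 200 changed probes and made 11 false calls. In all 20 alternatives were run. Some genes are not reported here but remain in the counts and lists.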

Additional observations from a re-analysis of the deposited data

How the results depend on the processing

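Of 217 values of member probes under 20 alternatives, 216 kept their direction and call, 0 reversed, and Ccl12 lost its call with the slide row in the fit (adjusted p = 0.0507 in limma). The alternatives gave 8 to 10 member genes and 8 to 11 member probes higher, with the lowest counts where only probes above background on all 6 arrays were tested. The median log2 change of the members was 3.06 with that filter, 3.42 with a floor at the detection limit and 2.56 with normexp background correction. Without each mouse in turn it was 3.75 to 3.95. Other CC chemokine ligands that were higher numbered 3, but 5 with a floor at the detection limit, 1 with the methods' test and 1 with the slide row, and 2 to 3 without each mouse in turn. Inducing cytokines that were higher numbered 4, but 2 with the methods' test, and 3 to 5 without each mouse in turn. The causes were not tested, except that fewer genes are tested under the stricter filter and that the normexp offset shrinks changes of dim probes.

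The methods' test gave all 11 member probes a p under its threshold, before and after Benjamini-Hochberg adjustment. Over all probes, 2604 were higher and 2455 lower, against 1458 and 463 with the slide row, 2075 and 971 with the slide column, 1736 and 1385 with the methods' test, 2150 and 1092 without a filter on dim probes, and 2540 and 4448 with normexp. Without each mouse in turn they numbered 1957 to 2370 and 760 to 2269. Same-numbered mice deviated with r = 0.12, 0.02 and 0.01 across probes, so the numbers were not taken to pair the mice. With the replicate block in the fit 2199 probes were higher and 1117 lower, and all 11 member probes passed. Signals near background limit Ccl3 and Ccl12.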
